A study of Homo sapiens with 16 samples.

Results

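The interferon-stimulated genes described here are 41 genes that type I or type II interferon is known to switch on, chosen by symbol from 28502 listed symbols. All 41 symbols were found in each of 6 poly(A) RNA-seq tables of HCT116, a long-established line of human colorectal cancer cells. Of the 41, 30 had a mean of at least 1 FPKM (a level scaled by transcript length and library size) and were tested. The other 11 were below that level, and XAF1 was listed at 0 in all 6 libraries. None of the 30 passed the test for TNF, for siEZH1 or for siUXT when all 6 libraries were fitted together. UXT and EZH1, the genes that siUXT and siEZH1 target, did not pass it either. A member that did not pass is therefore not shown to be unchanged. The sequences, levels and differences that stand behind these counts follow.

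The libraries came from cells transfected with siEZH1, an siRNA against the histone H3 lysine 27 methyltransferase gene EZH1, with siUXT, an siRNA against the prefoldin-like gene UXT, or with NC, the control transfection, whose letters the labels do not spell out. Each transfection was followed by tumour necrosis factor (TNF) or phosphate-buffered saline (PBS). That made 6 conditions, siEZH1 TNF, siEZH1 PBS, siUXT TNF, siUXT PBS, NC TNF and NC PBS, with 1 library each and so no replicate of any condition. The sources used here give neither the dose and time of TNF nor the siRNA sequences. The 10 chromatin samples of the series were not analysed here.

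Interferons bind surface receptors whose JAK kinases phosphorylate STAT proteins. STAT2 and IRF9 are parts of the factor ISGF3, which binds the interferon-stimulated response element (ISRE) before many of these genes. The gamma-activated site (GAS) is the other element known for interferon signalling. The encoded proteins bind viral RNA, block viral entry, tag proteins with the ubiquitin-like modifier ISG15 or feed back on the signal. TNF acts mainly through NF-kB, which binds its own site and also induces IRF1, a factor that recognises ISRE-like sequences.

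The labels were checked first. The siUXT libraries had 24.6 FPKM (TNF) and 27.7 FPKM (PBS) of UXT, against 59.6 and 62.2 FPKM in NC. EZH1 was at 4.14 and 4.05 FPKM in the siEZH1 TNF and PBS libraries and at 5.12 and 5.45 FPKM in NC, a smaller difference. In limma's fit of all 6 libraries UXT differed by -1.19 for siUXT and EZH1 by -0.30 for siEZH1. Neither was called, with limma adjusted p of 0.69 and 0.64. The NF-kB target NFKBIA was at 261 to 379 FPKM in the TNF libraries and at 22.8 to 28.2 FPKM in the PBS libraries. All 6 colorectal epithelial markers were expressed, and their summed level was 1807 and 1686 FPKM in siEZH1 TNF and PBS, 2178 and 2469 in siUXT TNF and PBS, and 2293 and 2011 in NC TNF and PBS. Of 6 leukocyte markers, PTPRC, CD3E and CD14 were at 0 in every library, and the summed level of the 6 was 0.813 to 1.22 FPKM in siEZH1, 0.360 to 0.629 in siUXT and 0.288 to 0.330 in NC. Fibroblast markers summed to 5.19 to 8.50 FPKM over the 6 libraries, with DCN and LUM at 0, and endothelial markers to at most 0.257 FPKM, with KDR at 0. Depth is not stated in the files. The most frequent ratio among low values put NC TNF and siEZH1 TNF at 0.719 and 0.720 of the depth of NC PBS, and the others at 0.949 to 1.02. One library stood apart. Of 11845 tested loci, 772 (6.52%) had less than NC PBS in siUXT PBS by at least 1 on the log2(FPKM + 1) scale, and 43 (0.363%) had so in siUXT TNF relative to NC TNF. Calls and counts of members over all 6 libraries are therefore given also without it where they change. Without it, limma's TNF and siEZH1 differences rest on the siEZH1 and NC libraries alone, as they do without siUXT TNF.

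RefSeq promoter windows in build GRCh38.p14, 300 bases that run from 250 before to 50 after a transcription start, were matched to 33 of the 41 members. The windows were searched on both strands for the ISRE core (GAAA, any 2 bases, GAAA), for the NF-kB letters (GGG, any 2 bases, TTTCC) and for the GAS letters (TTC, any 3 bases, GAA). The ISRE core was found in 28 of the 44 windows of members (63.6%), against 3.57% of all 35116 windows, and it lay in at least 1 window of 24 of the 33 genes. The GAS letters were found in 11 of the 44 windows (25%), against 7.66% of all windows. The NF-kB letters were found in 1 of the 44 windows (2.27%), that of OAS3, against 1.91% of all windows. The expressed and the hardly expressed members both held the ISRE core, in 19 of 25 genes with a window and a mean of at least 1 FPKM and in 5 of 8 below it. The 5 were GBP1, IFI44, IFI44L, MX1 and RSAD2. A match is a description of letters and does not show that a factor binds.

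The stretches below run from 250 bases before to 30 bases after the start, 5′ to 3′ on the gene's strand, with matches to the 3 motifs in capitals. IFIT3 (chr10:89327747-89328026, plus strand), OAS3 (chr12:112938224-112938503, plus strand) and DTX3L (chr3:122564088-122564367, plus strand) are shown because they had the highest mean differences under TNF among the tested members. IFI6 (chr1:27672163-27672442, minus strand) is shown because its difference between siEZH1 PBS and NC PBS was the lowest among them.
IFIT3: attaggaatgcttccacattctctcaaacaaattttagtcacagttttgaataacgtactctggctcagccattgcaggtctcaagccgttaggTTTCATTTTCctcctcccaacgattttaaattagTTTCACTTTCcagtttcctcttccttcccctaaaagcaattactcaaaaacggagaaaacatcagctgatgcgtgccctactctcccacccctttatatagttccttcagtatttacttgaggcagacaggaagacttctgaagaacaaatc
OAS3: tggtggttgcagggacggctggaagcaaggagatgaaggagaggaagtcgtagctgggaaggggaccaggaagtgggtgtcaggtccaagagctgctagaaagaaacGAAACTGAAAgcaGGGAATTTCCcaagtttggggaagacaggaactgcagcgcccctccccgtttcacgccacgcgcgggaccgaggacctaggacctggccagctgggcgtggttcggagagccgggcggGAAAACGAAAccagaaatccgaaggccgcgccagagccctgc
DTX3L: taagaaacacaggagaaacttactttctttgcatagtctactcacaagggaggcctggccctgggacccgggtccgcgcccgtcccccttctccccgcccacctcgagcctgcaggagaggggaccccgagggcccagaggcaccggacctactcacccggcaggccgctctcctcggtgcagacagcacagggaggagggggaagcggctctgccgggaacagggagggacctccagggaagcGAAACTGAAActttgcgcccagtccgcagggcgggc
IFI6: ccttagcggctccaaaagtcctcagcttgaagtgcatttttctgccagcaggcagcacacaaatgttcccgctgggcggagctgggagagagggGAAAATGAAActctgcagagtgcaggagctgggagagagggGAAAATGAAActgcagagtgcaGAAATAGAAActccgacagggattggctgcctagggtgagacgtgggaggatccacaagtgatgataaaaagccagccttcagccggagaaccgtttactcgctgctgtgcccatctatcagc
IFIT3, which has another window at a second start, holds the ISRE core on the opposite strand at positions -156 and -122, counted from the start as 0. OAS3 holds it at -143 and -12, with the NF-kB letters at -130 between them. DTX3L holds it once, at -6. The start of the divergent gene PARP9 lies 38 bases away, and the same bases are the ISRE match in the PARP9 window at -41. IFI6 holds 3, at -156, -115 and -93. None of the capitalised matches overlaps another in these 4 stretches.

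The 30 tested members had a median level of 4.43 FPKM, against 10.2 FPKM over all 11845 tested loci. Of the 41 members, 3 averaged at least 100 FPKM (7.32%, against 4.05% of 17463 listed protein-coding symbols), 5 lay between 10 and 100 (12.2%, against 28.9%), and 22 between 1 and 10 (53.7%, against 28.1%). The 3 were IFITM3 at 452 FPKM, LGALS3BP, a secreted glycoprotein, at 217 FPKM and IFITM2 at 135 FPKM. IFITM3 and IFITM2, membrane proteins that hinder fusion of entering viruses, are close paralogs, so the split of reads between them is uncertain; IFITM1, of the same family, averaged 2.83 FPKM. ISG15, the ubiquitin-like modifier, averaged 76.1 FPKM, while its ligase HERC5 and its protease USP18 averaged 4.21 and 5.6 FPKM. The ISGF3 subunit genes STAT2 and IRF9 averaged 12.3 and 18.8 FPKM. The IRF9 value is shared with RNF31, whose 6 values were identical, and cannot be assigned to 1 gene. IRF7, the factor that amplifies interferon production, averaged 2.97 FPKM.

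Of the 41 members, 1 was listed at 0 throughout (2.44%, against 18.5% of 17463 listed protein-coding symbols), and 3 were below 0.1 FPKM in every library (7.32%, against 23.5%). Besides XAF1, an apoptosis-associated factor, these were IFI44L with a highest value of 0.0240 FPKM and SAMD9L with 0.0515 FPKM. A mean below 1 FPKM was found for 11 members (26.8%, against 38.9% of the protein-coding symbols). They were XAF1, IFI44L, SAMD9L, RSAD2, GBP1, OAS2, MX2, MX1, IFI44, OAS1 and GBP2, in rising order of mean. The group held both MX genes, which encode dynamin-like GTPases that block viral nucleocapsids, and both guanylate-binding protein genes, GTPases that attack pathogen membranes. RSAD2 (viperin) was above 0 only in siEZH1 PBS at 0.104 FPKM and NC PBS at 0.106 FPKM. MX1 lay between 0.125 and 0.518 FPKM, and MX2 was at 0 in 3 libraries. The GBP2 value, 0.343 to 0.880 FPKM, is shared with GBP7.

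Families were split by level. In the OAS family, enzymes that sense double-stranded RNA and activate RNase L, OAS3 averaged 22.5 FPKM, OAS1 0.581 FPKM and OAS2 0.0436 FPKM. OASL, a family member without that enzyme activity, averaged 3.28 FPKM. The IFIT genes, whose proteins bind viral RNA ends, were all tested, with means between 1.78 (IFIT2) and 7.40 FPKM (IFIT5). SAMD9 averaged 1.68 FPKM, while its neighbour and paralog SAMD9L averaged 0.0261 FPKM. IFI44 and IFI44L, also paralogs, averaged 0.544 and 0.0040 FPKM.

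**Figure D1:**
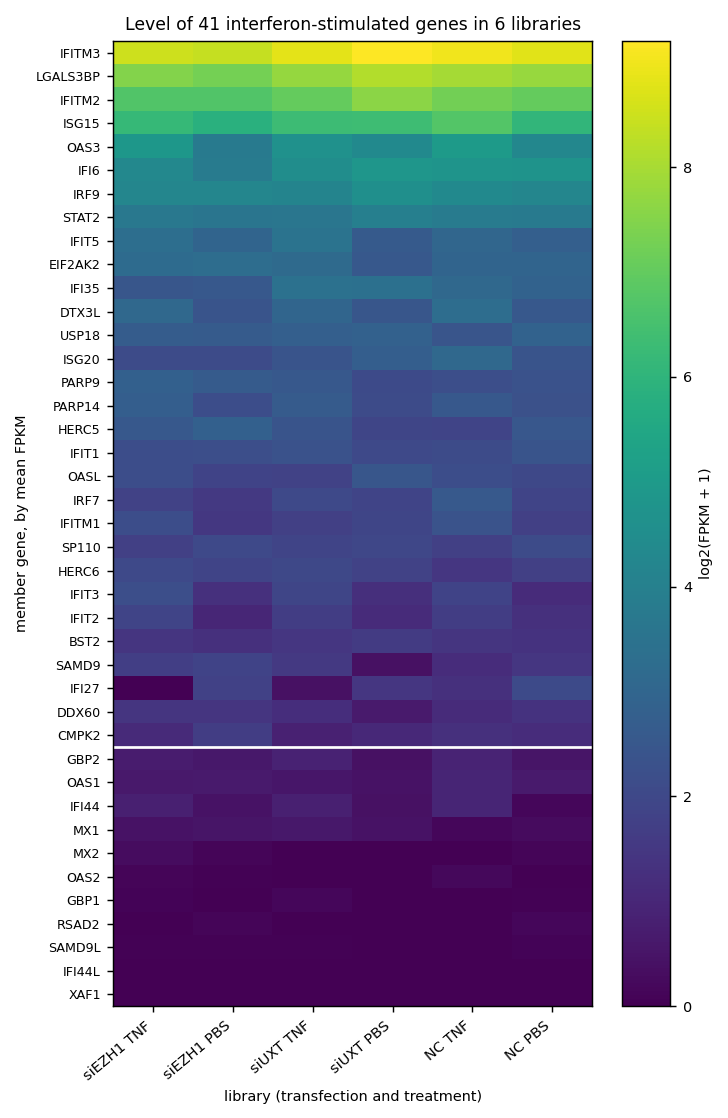
Level of the 41 interferon-stimulated genes as log2(FPKM + 1), colour scale, with 1 row per gene in falling order of mean and 1 column per library. The white line separates the 30 members with a mean of at least 1 FPKM from the 11 below it, and IFITM3, LGALS3BP and IFITM2 form the bright rows at the top.

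Under TNF, 6 members had higher levels in every TNF library than in any PBS library, though none passed the test over all loci. IFIT3 was at 3.59, 2.76 and 2.60 FPKM in the siEZH1, siUXT and NC TNF libraries, against 1.41, 1.36 and 1.19 FPKM in the matching PBS libraries. OAS3 was at 28.0, 24.4 and 31.4 FPKM under TNF, against 13.0, 19.7 and 18.2 FPKM under PBS. DTX3L, a ubiquitin ligase that works with PARP9, was at 7.58, 7.07 and 8.83 FPKM under TNF, against 4.30, 4.55 and 4.79 FPKM under PBS. For each of these genes the lowest TNF library lay above the highest PBS library.

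The size of these differences is given on the log2(FPKM + 1) scale, which understates changes of low genes, as the mean over the 3 transfections with its SD. IFIT3 differed by 0.77 ± 0.14, OAS3 by 0.70 ± 0.38 and DTX3L by 0.67 ± 0.11 (n = 3 pairs each). IFIT2 was at 2.71, 2.19 and 2.18 FPKM in siEZH1, siUXT and NC under TNF and at 0.976, 1.20 and 1.42 FPKM under PBS, a difference of 0.61 ± 0.27. IFIT5 was at 9.10, 10.3 and 7.27 FPKM under TNF and at 6.82, 5.14 and 5.83 FPKM under PBS, a difference of 0.51 ± 0.32. PARP14, an ADP-ribosyltransferase of the macrodomain group, was at 5.76, 5.20 and 4.74 FPKM under TNF and at 3.50, 3.28 and 3.81 FPKM under PBS. These 6 were the tested members whose TNF libraries all lay above their PBS libraries, 6 of 30, against 3.47% of all tested loci. IRF7 was also higher in each pair, which made 7 of 30 (9.08% of loci), but its groups overlapped.

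IFIT1, the other member of the IFIT family listed here, at 3.47, 3.93 and 3.33 FPKM in siEZH1, siUXT and NC under TNF and 3.67, 3.13 and 4.22 FPKM under PBS, had overlapping groups and pair differences of -0.06, 0.25 and -0.27. PARP9, which faces DTX3L across 38 bases, was at 6.0, 4.74 and 3.65 FPKM under TNF and at 5.32, 3.20 and 3.99 FPKM under PBS. Its pair differences were 0.15, 0.45 and -0.10, so the NC pair went the other way from DTX3L. A second annotated PARP9 start lies 446 bases from that of DTX3L, inside DTX3L, and the strand setting of the counting is not stated. Reads from bases that both genes cover can therefore not be told apart.

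Only IFI27 and SP110 had every TNF library below every PBS library, 2 of 30, against 3.04% of all tested loci. IFI27, a small mitochondrial and nuclear envelope protein, was listed at 0 in siEZH1 TNF and was at 0.341 FPKM in siUXT TNF and 1.40 FPKM in NC TNF, against 2.44, 1.73 and 3.24 FPKM under PBS. An exact 0 can be a failed estimate, so no fold is given for siEZH1. SP110, a nuclear body protein, was at 2.34, 2.66 and 2.34 FPKM in siEZH1, siUXT and NC under TNF and at 3.08, 2.92 and 3.27 FPKM under PBS.

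Limma with Benjamini-Hochberg adjustment over all 11845 tested loci called 0 of the 30 members up (0.405% of loci called up) and 0 down (0.00844% called down). At an unadjusted p under 0.05 it had 6 members up (2.92% of loci) and 1 down (1.04% of loci). The adjusted p from limma was 0.29 for IFIT3, 0.38 for DTX3L, 0.55 for OAS3, 0.66 for IFIT2 and 1.0 for IFIT5; it was 0.18 for IFI27, at -1.21 with an SE of 0.23. Over the alternatives the limma adjusted p of IFIT3 ranged from 0.055 to 0.96 and that of IFIT2 from 0.12 to 1.0. IFIT5 had a difference of 0.32 without siUXT PBS or without siUXT TNF. Leaving out either library of a transfection gives the same TNF difference by construction, from the other transfections alone. With a pseudocount of 0.1, IFIT2 was at 0.93 and IFI27 at -2.63. Calls depended on which transfections entered the comparison. Without siUXT PBS the siUXT pair is lost, so the TNF difference rests on the siEZH1 and NC pairs. Without siUXT PBS, limma (Benjamini-Hochberg) called OAS3 up at 0.90 ± 0.10 (SE) with an adjusted p of 0.0086, and DTX3L at 0.73 ± 0.11 (SE) with an adjusted p of 0.028, where 2.47% of all loci were called up. Over all alternatives the limma adjusted p ranged from 0.0086 to 1.0 for OAS3 and from 0.028 to 1.0 for DTX3L. Without siUXT TNF the same genes and ISG15 were called (2.48% of loci), with an adjusted p of 0.0496 for ISG15 in limma (range up to 1.0). Without NC TNF or without NC PBS, limma called IFI27 down at -1.41 (0.22% and 0.203% of loci called down), with an adjusted p range over all alternatives of 1.1e-05 to 0.55. In the fits without an NC library, limma replaced each locus's own spread by the value of the trend over loci. The lowest adjusted p therefore does not measure the spread of IFI27 itself. The TNF libraries left in those fits had IFI27 at 0 (siEZH1) and 0.341 FPKM (siUXT), or these and NC TNF.

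The other members are summarised by their medians. The 30 tested members had a median TNF difference of 0.12 in siEZH1, 0.02 in siUXT and 0.17 in NC, and the medians over all tested loci were 0.01, -0.05 and -0.02. In siEZH1 and in NC 21 of the 30 were higher under TNF (51.2% and 47.2% of loci), and in siUXT 15 of 30 (45.8%). ISG15 was at 70.9, 79.0 and 105 FPKM in siEZH1, siUXT and NC under TNF, against 55.9, 79.6 and 65.7 FPKM under PBS. It was thus level in siUXT and higher in the other pairs, and its groups overlapped because of siUXT PBS. ISG20, an RNA exonuclease, was at 7.57 FPKM in NC TNF against 4.29 FPKM in NC PBS, but at 3.29 against 3.30 FPKM in siEZH1. Without siUXT PBS, a choice made after seeing the data, 9 of 30 members had every TNF library above every PBS library, with BST2, IFITM1 and ISG15 as the added genes, against 10.2% of all tested loci. The members with every TNF library below every PBS library were then again 2 (9.59% of loci). Differences of the TNF response between transfections have no replicate and were not tested.

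**Figure D2:**
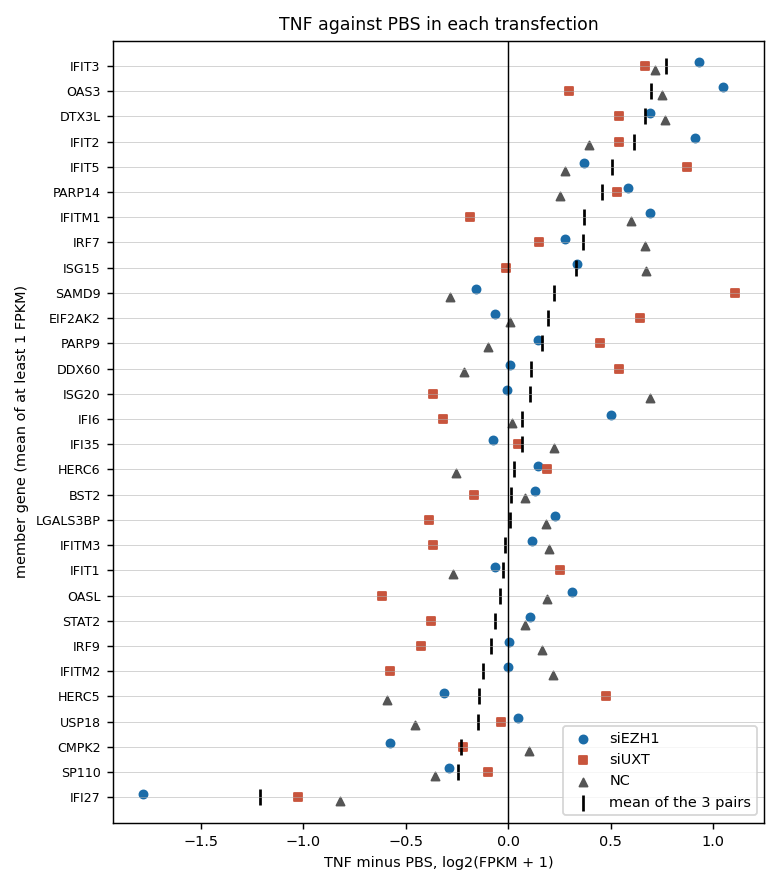
Difference of TNF minus PBS on the log2(FPKM + 1) scale for the 30 tested members, with 1 point per transfection (siEZH1, siUXT, NC) and a bar for the mean of the 3 pairs. IFIT3, OAS3, DTX3L, IFIT2, IFIT5, PARP14 and IRF7 lie right of 0 in all 3 transfections, and IFI27 and SP110 lie left of it.

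**Figure D3:**
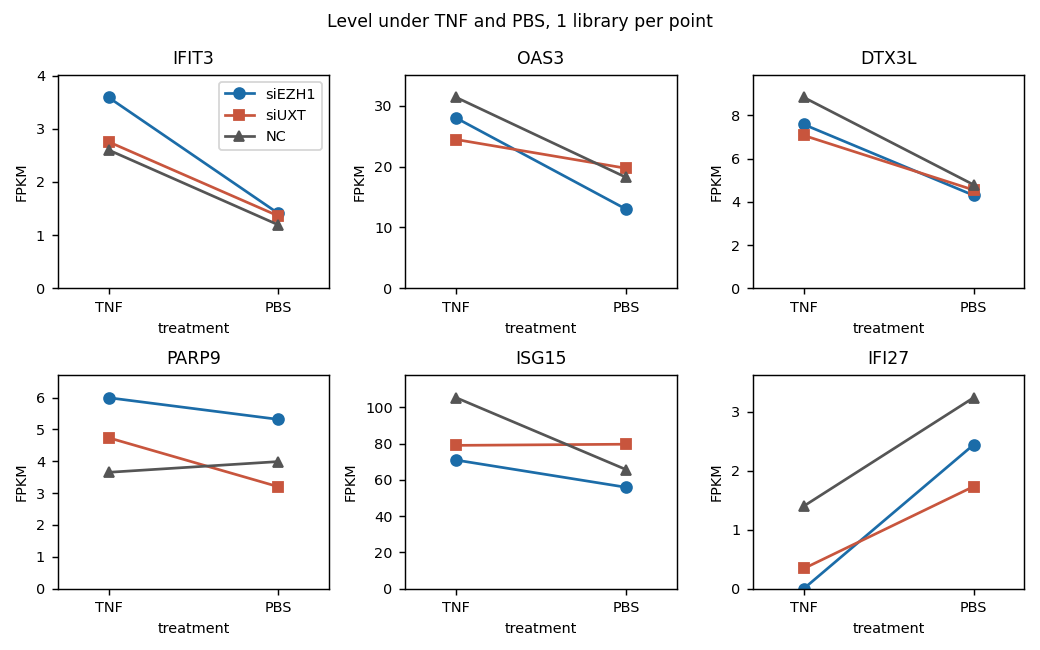
FPKM under TNF (left) and PBS (right) for 6 members, with 1 point per library and a line joining the libraries of a transfection. DTX3L has its 3 TNF points between 7.07 and 8.83 and its PBS points between 4.30 and 4.79, while PARP9 overlaps.

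After siEZH1, the members with the highest levels had lower values than in NC under both treatments. Of the 8 members with a mean of at least 10 FPKM, a level chosen after seeing the data, 8 were lower in siEZH1 TNF than in NC TNF (50.7% of all loci at that level) and 7 were lower in siEZH1 PBS than in NC PBS (51.8%). IFITM3 was at 366 FPKM in siEZH1 TNF and 337 FPKM in siEZH1 PBS, against 514 and 448 FPKM in NC. LGALS3BP was at 182 and 155 FPKM in siEZH1 TNF and PBS, against 249 and 220 FPKM in NC. IFITM2 was at 104 FPKM in both siEZH1 libraries, against 150 and 129 FPKM in NC TNF and PBS. In each case both siEZH1 libraries lay below both NC libraries.

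IFI6, an inner mitochondrial and endoplasmic reticulum protein with antiviral activity, was at 18.9 and 13.1 FPKM in siEZH1 TNF and PBS, against 25.9 and 25.6 FPKM in NC. IFI35 was at 4.52 and 4.82 FPKM in siEZH1 TNF and PBS, against 7.67 and 6.42 FPKM in NC. ISG20 was at 3.29 and 3.30 FPKM against 7.57 and 4.29 FPKM, and IRF7 at 2.53 and 1.91 FPKM against 4.89 and 2.71 FPKM, in the same order. STAT2 also had both siEZH1 libraries below both NC libraries, with log2 differences of -0.16 under TNF and -0.18 under PBS. IFI27 was lower too, at 0 and 2.44 FPKM in siEZH1 TNF and PBS against 1.40 and 3.24 FPKM in NC, with overlapping groups.

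Other members lay on the opposite side. HERC5 was at 4.73 and 6.13 FPKM in siEZH1 TNF and PBS, against 2.74 and 4.63 FPKM in NC. PARP9 was at 6.0 and 5.32 FPKM in siEZH1 TNF and PBS, against 3.65 and 3.99 FPKM in NC. SAMD9, an antiproliferative and antiviral protein, was at 2.24 and 2.61 FPKM, against 1.26 and 1.75 FPKM in NC. EIF2AK2, the kinase PKR that stops translation on double-stranded RNA, was at 8.36 and 8.77 FPKM, against 6.88 and 6.84 FPKM in NC. With the helicase DDX60 and HERC6, 6 of the 30 tested members had both siEZH1 libraries above both NC libraries, and 8 had both below; over all tested loci the shares were 31.1% above and 28.4% below. Neither count exceeded the share over all loci.

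For siEZH1, limma with Benjamini-Hochberg adjustment called 0 of 30 members up (0% of loci) and 0 down (0.0169% of loci), with 0 up (1.7% of loci) and 6 down (6.51%) at an unadjusted p under 0.05. The mean difference of IFI6 was -0.68 with an SE of 0.24, that of ISG20 -0.65, of IRF7 -0.54 and of IFI35 -0.50, each with a limma adjusted p of 0.60. IFI27 had -0.78 with the same limma adjusted p of 0.60, but -0.35 without siEZH1 TNF, where it was listed at 0, -1.21 without siEZH1 PBS, -0.49 without NC TNF and -2.15 with a pseudocount of 0.1. Single libraries moved IFI6, ISG20 and IRF7 by over 1.5 times too. IFI6 was at -0.35 without siEZH1 PBS, and ISG20 at -0.21 without NC TNF and -1.09 without NC PBS. IRF7 was at -0.32 without NC TNF, while IFI35 lay between -0.62 and -0.38 over all alternatives. Without siUXT PBS, where the spread came from the siEZH1 and NC pairs alone, limma called 7 members down (IFI6, IFI35, IFITM2, IFITM3, ISG15, ISG20 and LGALS3BP) and 2 up (HERC5 and PARP9), while 14.7% of all loci were called down and 11.8% up. The lowest limma adjusted p of that fit among members was 0.0081 for LGALS3BP, at -0.48, and over all alternatives it ranged from 0.0079 to 1.0. The LGALS3BP difference was -0.31 without siEZH1 PBS. The fit without siUXT TNF called the same 9 members (14.8% of loci down and 11.3% up). The median difference of the 30 members was -0.07 under TNF and -0.14 under PBS, against 0.02 and 0.00 over all tested loci. The epithelial keratin genes KRT8, KRT18 and KRT19 were lower in siEZH1 as well, with differences between -0.45 and -0.26, while EPCAM was higher by 0.34 and 0.36 and CDH1 by 0.11 and 0.05 under TNF and PBS. KRT19 shares its values with JUP. Their part in the result was not tested. The members' list and this direction were known from earlier results of these data.

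In the siUXT libraries the difference from NC turned round between the treatments for most members, as it did for most loci. Under TNF and PBS the signs were opposite for 22 of the 30 tested members, against 59.7% of all tested loci. The PBS side rests on siUXT PBS alone, the library that stood apart. Whether the siUXT difference depends on the treatment was not tested. SAMD9 had the widest turn: it was at 1.88 FPKM in siUXT TNF against 1.26 FPKM in NC TNF, but at 0.337 FPKM in siUXT PBS against 1.75 FPKM in NC PBS. HERC5 was at 4.27 FPKM in siUXT TNF against 2.74 FPKM in NC TNF, and at 2.79 FPKM in siUXT PBS against 4.63 FPKM in NC PBS. EIF2AK2 was at 8.05 against 6.88 FPKM under TNF and at 4.79 against 6.84 FPKM under PBS, siUXT before NC.

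The abundant members turned the opposite way. IFITM3 was at 458 FPKM in siUXT TNF against 514 FPKM in NC TNF, and at 590 FPKM in siUXT PBS against 448 FPKM in NC PBS. LGALS3BP was at 215 FPKM in siUXT TNF against 249 FPKM in NC TNF, and at 281 FPKM in siUXT PBS against 220 FPKM in NC PBS. The same 8 members with a mean of at least 10 FPKM were all lower in siUXT TNF than in NC TNF (49.4% of all loci at that level) and higher in siUXT PBS than in NC PBS (59.1%). Of the 22 between 1 and 10 FPKM, 7 were lower under TNF (46.1% of loci at that level) and 15 lower under PBS (52.1%). Across the 30 members the Spearman correlation of the siUXT minus NC difference with the level in the libraries outside the pair was 0.51 under PBS and 0.01 under TNF; over all tested loci it was 0.07 and -0.03. Genes are not independent replicates, and the PBS values rest on siUXT PBS, the library that stood apart, so these are descriptions. The keratin genes KRT8, KRT18 and KRT19 were also higher in siUXT PBS than in NC PBS, by 0.29 to 0.51, and the epithelial gene EPCAM was at 58.7 FPKM against 120 FPKM. Their part in the result was not tested.

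Few members were on the same side of NC in both siUXT libraries. IFI35 was at 9.87 and 9.52 FPKM in siUXT TNF and PBS, against 7.67 and 6.42 FPKM in NC, and with BST2 (tetherin) and HERC6 made up 3 of 30 members with both siUXT libraries above both NC libraries (17.3% of all tested loci). CMPK2, a mitochondrial nucleotide kinase, was the 1 member with both below (12.9% of loci), at 0.780 and 1.08 FPKM in siUXT TNF and PBS against 1.43 and 1.26 FPKM in NC. IFI27 was lower under both treatments, with overlapping groups, at 0.341 and 1.73 FPKM in siUXT TNF and PBS against 1.40 and 3.24 FPKM in NC. Limma with Benjamini-Hochberg adjustment called 0 of 30 members up (0.0253% of loci) and 0 down (0.0169%), with 0 up (2.16% of loci) and 1 down (1.49%) at an unadjusted p under 0.05. That 1 was IFI27, at -0.74 with an SE of 0.28 and a limma adjusted p of 0.91, and it had -0.45 without NC TNF and -1.32 with a pseudocount of 0.1. Without siUXT PBS, limma again called 0 up (0.439% of loci) and 0 down (0.65%). Without siUXT TNF it called IFITM2, IFITM3 and LGALS3BP up and SAMD9 down, where 12% of loci were called up and 18.4% down. The NC libraries are shared with the siEZH1 comparison.

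**Figure D4:**
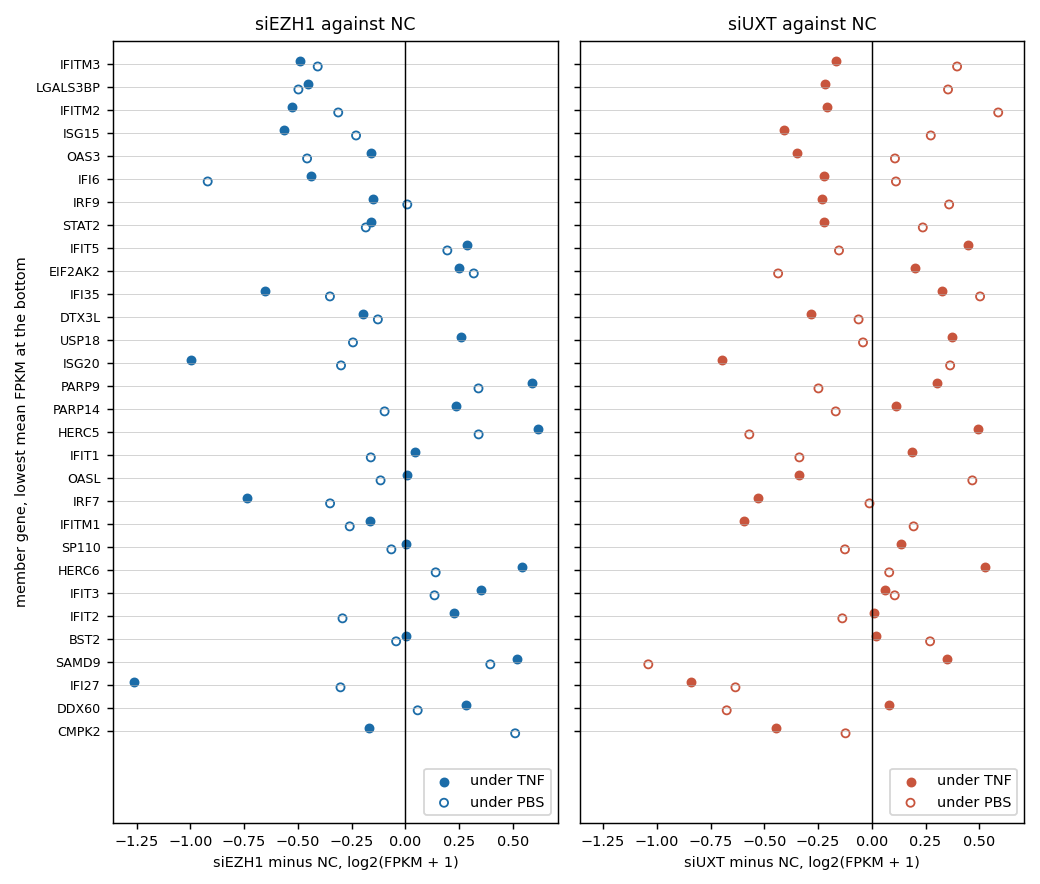
Difference of siEZH1 minus NC (left) and siUXT minus NC (right) on the log2(FPKM + 1) scale for the 30 tested members, in order of mean FPKM, with filled points under TNF and open points under PBS (1 pair of libraries each). In siEZH1 the top 8 rows lie left of 0 under both treatments except IRF9, at 0.01 under PBS, and in siUXT they lie left of 0 under TNF and right of 0 under PBS.

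The interferon pathway around these genes was read from a list of 35 genes that are not members, of which 31 symbols were listed and 23 loci tested. Limma with Benjamini-Hochberg adjustment called 4 of the 23 up under TNF (0.405% of all loci) and 0 down. It called 0 in either direction for siEZH1 and siUXT, with 2 (8.21% of all loci) and 0 (3.65%) at an unadjusted p under 0.05. IRF1 rose most, by 2.87 with an SE of 0.23 and a limma adjusted p of 0.0060, and was at 61.6, 58.7 and 92.8 FPKM in siEZH1, siUXT and NC under TNF against 6.16, 11.9 and 8.62 FPKM under PBS. The interferon-gamma receptor chain IFNGR2 rose by 1.86, the kinase IKBKE by 1.54 and the adaptor TICAM1 by 1.28. Of 11 alternatives, IFNGR2 was called in 11, IRF1 and IKBKE in 10 and TICAM1 in 5. The alternatives are not independent, because leaving out either library of a transfection gives the same TNF difference. IRF2 and IFNGR1 had differences of 1.08 and 1.43, with limma adjusted p of 0.076 and 0.18. Limma called both up under TNF without siUXT PBS, and SOCS1 and IRF5 as well, where 2.47% of all loci were called up. The TNF difference rests there on the siEZH1 and NC pairs. In the siUXT pair SOCS1 and IRF5 differed by -0.12 and -0.03 instead. The RNA sensor genes IFIH1 and DDX58 (RIG-I) had differences of 1.35 and 1.04 without passing limma's test over all loci (adjusted p 0.063 and 0.12), and were called without siUXT PBS (adjusted p 0.012 and 0.015). For siEZH1, the feedback inhibitor SOCS1 had a difference of -0.64, TICAM1 and IRF1 of -0.51 and the kinase TYK2 of -0.50, with limma adjusted p of 0.60 for SOCS1, TICAM1 and TYK2 and 0.62 for IRF1. Without siEZH1 PBS SOCS1 was at -0.37 and IRF1 at -0.31, and without NC TNF at -0.40 and -0.20. Without siUXT PBS the differences of SOCS1, TICAM1, IRF1 and TYK2 were unchanged. Limma called each of these genes down there, where 14.7% of all loci were called down.

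The interferon genes IFNB1, IFNK and IFNG were listed at 0 in all 6 libraries, IFNA1 was above 0 only in NC TNF, at 0.232 FPKM, and IFNE lay between 0 and 0.451 FPKM. The receptor gene IFNAR1 lay between 3.93 and 9.21 FPKM. IFNAR2, at 16.6 to 24.0 FPKM, had the same values as IL10RB. IFNAR1, STAT2 and the shared IRF9 value were thus above 0 in every library.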

How the data were processed

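Poly(A) RNA-seq of 6 HCT116 libraries was used. For each library the authors deposited FPKM, listed by gene symbol. Per the submitters' processing notes, FastQC, cutadapt, TopHat2, Bowtie, SICER and hg19 were named; the sources used here do not name the program that made the FPKM, the annotation or the strand setting. Libraries were grouped by their titles.

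Symbols whose 6 values were the same were joined into 1 locus. That left 17642 loci above 0, and the 11845 that averaged 1 FPKM or more were tested. Values were analysed as log2(FPKM + 1) with limma 3.58.1 in R 4.3.3 (lmFit, eBayes with trend), an additive model of transfection and treatment with 2 residual degrees of freedom, Benjamini-Hochberg adjustment over all loci and a threshold of 0.05. Differences of single pairs carry no test. The labels do not say that libraries came from separate transfections, so p-values measure only the spread between these libraries. With 1 library per condition that spread is how unequal the TNF difference was between transfections. A real effect of an siRNA on the TNF response would count as error. The fit was tested on simulated data with independent errors, the same TNF change in every transfection and no library that stood apart. Python 3.11.15 with pandas 2.3.3 and numpy 2.4.6 did the rest, and figures used matplotlib 3.10.9.

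Members and lists were chosen with earlier results of these data known. One gene counted in the pathway list is not reported here. Test values were given for tested members called, or with the same sign in every pair and a mean difference of at least 0.5; members called only in an alternative were added after seeing values. Relative depth came from the most frequent ratio between values under 0.4 FPKM, with a tolerance of 2%. Alternatives were a pseudocount of 0.1, no filter, median-of-ratios size factors (1.00 to 1.05), no trend, unmerged symbols and leaving out libraries.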

Additional observations from a re-analysis of the deposited data

How the results depend on the processing

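The counts of 0 called members held under a pseudocount of 0.1, no filter, size factors, eBayes without trend and unmerged symbols, for all 3 comparisons and both directions. Leaving out 1 library, with 1 residual degree of freedom, moved the count of members called up to between 0 and 3 for TNF, 0 and 2 for siEZH1 and 0 and 3 for siUXT, and the count called down to between 0 and 1, 0 and 7, and 0 and 1. Fitted on NC and siEZH1 libraries only, 2 members were called up (11.6% of all loci) and 7 down (14.6%) for siEZH1, with the spread from fewer libraries. The siEZH1 differences of that fit equal, by construction, those without siUXT PBS or without siUXT TNF. The median siEZH1 difference of the tested members ranged from -0.16 to -0.023 over the fits without 1 library, and the siUXT median from -0.13 to 0.12. The number of members below the level limit was 11 under 1 FPKM, 8 under 0.5 FPKM and 17 under 2 FPKM. Without siUXT TNF the siUXT differences were 0.53 for IFITM2, 0.38 for IFITM3, 0.37 for LGALS3BP and -1.01 for SAMD9. For siUXT, the sign turned for IFITM2 (-0.15 without siUXT PBS, -0.06 without NC PBS), IFITM3 (-0.15, -0.05), LGALS3BP (-0.23, -0.06) and SAMD9 (0.32, 0.03), in the same order of libraries. Each such fit rests on fewer libraries, and without siUXT PBS or siUXT TNF on 1 siUXT library, whose spread is not measured. For TNF, leaving out either library of a transfection gives the same difference, so the alternatives are not independent. Without an NC or a siEZH1 library, limma replaced each locus's own spread by the value of the trend over loci. Of 405 single-gene values under alternatives, 323 kept direction and side of the threshold, 66 newly passed it, 8 no longer passed it and 8 changed sign. Read depth is unknown, so no interval can be given for members near 0 FPKM. The labels give no replicate numbers to pair by. TNF and PBS were paired within transfections by the model's transfection term.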
